A study of Homo sapiens with 2 samples.

Results

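The 9 receptor genes ALK, LTK, NTRK2, NTRK3, NGFR, RET, KIT, ERBB3 and ERBB4, which are studied in neuroblastoma for growth and survival signals, were examined in the NeuroD1 binding data of IMR-32 cells. The members were taken by name, and a peak was counted for a gene when it overlapped the RefSeq body of the gene or lay up to 20 kb from either end. By this rule, 10 of the 6183 peaks in the list were counted for 2 of the 9 genes (22.2%). Among all protein-coding genes, the share with a peak was 29.8%. ALK held 8 peaks, of which 6 lay in a stretch of high local background. NGFR had 2 beside it, inside the noncoding gene NGFR-AS1. LTK, NTRK2, NTRK3, RET, KIT, ERBB3 and ERBB4 had 0.

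IMR-32 is a neuroblastoma cell line with amplified MYCN, and the cells were of wild type genotype with no treatment named. The series consists of 1 NeuroD1 ChIPseq library and 1 input library of chromatin taken without an antibody, of which only the peak list of the former was used here. As 1 library of 1 cell line has no replicate, no difference between conditions was tested, and the intervals below cover counting error only. The label of the library names a NeuroD1 antibody, whereas the ChIPseq protocol of the study names an H3K27Ac antibody. The antibody list of the study holds both and gives for NeuroD1 the product named in the label. The study treats the library as NeuroD1 ChIPseq and ran a motif analysis of its binding sites, which was not repeated here. The peak list was used as labelled. The total number of reads is unknown. The expression of the genes was not analysed here.

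Receptor tyrosine kinases span the cell membrane, bind a ligand outside the cell and phosphorylate each other and their adaptors inside it. ALK is mutated or amplified in a part of neuroblastomas, and LTK is its closest relative. NTRK2 and NTRK3 encode the neurotrophin receptors TrkB and TrkC, and NGFR encodes the neurotrophin receptor of the tumour necrosis factor receptor family, which has no kinase domain. RET is the signalling receptor of the GDNF family ligands, KIT is the receptor of stem cell factor, and ERBB3 and ERBB4 are receptors of the neuregulins. NeuroD1 is a basic helix-loop-helix transcription factor that binds DNA at E-boxes, short sites of the form CANNTG, in which N is any base.

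Sequences at the start sites are shown first, since the peaks of ALK lay far from them. RefSeq promoter windows of GRCh38.p14, from 250 bases before to 50 bases after a start, were held for 7 of the 9 genes, in 12 windows. NGFR and ERBB3 had none in the table. No peak overlapped any of the 12 windows. Of all 34961 windows, 2921 (8.36%) overlapped a peak. The ALK windows are shown because ALK held most of the peaks, the LTK window because it is the nearest relative, and the INSR window because it overlapped a strong peak in a related receptor gene. Each is written from 5′ to 3′ on the strand of the gene, and capitals mark every CANNTG.

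ALK, main start, minus strand, chr2:29921537-29921836: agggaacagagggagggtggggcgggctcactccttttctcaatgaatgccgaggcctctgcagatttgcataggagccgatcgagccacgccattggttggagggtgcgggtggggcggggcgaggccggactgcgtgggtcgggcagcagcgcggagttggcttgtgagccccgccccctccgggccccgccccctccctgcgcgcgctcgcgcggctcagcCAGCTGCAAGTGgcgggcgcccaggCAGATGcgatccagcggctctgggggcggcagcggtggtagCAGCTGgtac
ALK, internal start, minus strand, chr2:29223774-29224073: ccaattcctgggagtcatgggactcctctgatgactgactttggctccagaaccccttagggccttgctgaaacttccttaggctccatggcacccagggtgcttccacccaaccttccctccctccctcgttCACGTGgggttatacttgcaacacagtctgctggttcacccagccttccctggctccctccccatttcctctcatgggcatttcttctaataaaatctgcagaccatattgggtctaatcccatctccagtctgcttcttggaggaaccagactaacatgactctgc
LTK, minus strand, chr15:41513778-41514077: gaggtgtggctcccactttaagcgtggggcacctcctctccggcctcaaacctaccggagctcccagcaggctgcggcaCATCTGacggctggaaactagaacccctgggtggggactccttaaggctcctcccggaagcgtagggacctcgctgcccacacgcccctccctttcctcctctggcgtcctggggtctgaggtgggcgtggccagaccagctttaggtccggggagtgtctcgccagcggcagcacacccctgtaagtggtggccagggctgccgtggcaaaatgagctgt
INSR, minus strand, chr19:7294365-7294664: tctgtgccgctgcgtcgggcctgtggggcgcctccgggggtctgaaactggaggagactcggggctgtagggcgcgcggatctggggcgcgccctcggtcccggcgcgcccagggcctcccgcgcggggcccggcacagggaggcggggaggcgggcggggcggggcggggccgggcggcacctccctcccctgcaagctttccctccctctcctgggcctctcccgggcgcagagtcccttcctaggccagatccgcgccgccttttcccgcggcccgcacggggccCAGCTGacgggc

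The main ALK window held 4 E-boxes. CAGCTG began 26 bases and CAAGTG 20 bases before the start, CAGATG began 1 base before it, and a second CAGCTG began 40 bases after it. The nearest peak to this window was 215 kb away. The internal ALK window held 1 CACGTG, and the nearest peak was 38.8 kb away. LTK held 1 CATCTG, which is CAGATG read on the other strand, and its nearest peak was 230 kb away. INSR, the insulin receptor, held 1 CAGCTG in a window that overlapped a peak of 25.5-fold. Over both strands, CANNTG was present in 8 of the 12 member windows and in 68.7% of all windows. CAGATG or CATCTG was present in 2 of the 12 and in 14.7% of all windows, and CAGCTG, which reads the same on both strands, in 2 of the 12 and in 18.0%. CAGATG and CAGCTG are forms of CANNTG, so these counts overlap. The letters are a description of the windows and not sites of binding. The bases under the peaks themselves were not analysed here.

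ALK lies on the minus strand of chromosome 2 from 29192774 to 29921586 and is 729 kb long. All 8 peaks lay inside the gene, between 29.5% and 90.4% of its length counted from the main start. Whether they lay in exons or introns was not analysed here. Among 19974 protein-coding genes, 9 genes including ALK had 8 or more peaks by the same rule (0.0451%), and 6 of the 8 ALK peaks lay in a single stretch of high background, between 29.52 and 29.66 Mb. This stretch was separated by the rule because of its background, so its background is given as a description. Without it, ALK held 2 peaks, and 1805 protein-coding genes (9.04%) had at least 2 peaks with the whole list.

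Each peak was described by its fold enrichment, that is, the pileup of ChIP fragments at the summit plus 1, divided by the local background plus 1, and by the −log10 q that the peak caller gave. The ChIP reads at the summit and the local background were solved from these values, with an exact Poisson interval at 95% for the reads. The interval of a fold enrichment holds the background fixed.

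The 2 ALK peaks outside the stretch had few reads over a low background. The peak nearer to the main start, chr2:29706426-29706681, lay 215 kb downstream of it. It was 256 bp wide and was enriched 6.37-fold (3.80 to 10.1) at −log10 q = 6.79, from 16 reads (9.15 to 26.0) against a local level of 1.62. The other, chr2:29262898-29263043, lay 659 kb downstream of the main start and 39.1 kb upstream of the internal start. It was 146 bp wide, which is the lowest width in the list, and was enriched 5.28-fold (2.93 to 8.92) at −log10 q = 3.89, from 12 reads (6.20 to 21.0) against a local level of 1.42. By fold enrichment the first ranked 3689 and the second 5229 of 6183. Both were below the median of all peaks, 6.79-fold, which lay inside both intervals.

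The 6 peaks of the stretch spanned 127 kb, which is 17.4% of the gene, from 29528914 to 29656026. The nearest of the other ALK peaks were 50.4 kb away on the side of the main start and 266 kb away on the other side. In the order of transcription, the peak chr2:29655403-29656026 came first, 266 kb from the main start, with 167 reads (143 to 194) against a local level of 50.5, which gave a fold enrichment of 3.20 (2.74 to 3.72) at −log10 q = 31.0. The peak chr2:29650466-29651339 was the widest of the 6 at 874 bp, with 250 reads (220 to 283) against 67.0, a fold enrichment of 3.62 (3.19 to 4.09) and −log10 q = 57.2. The summits of these peaks were 5.02 kb apart.

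The peak chr2:29613672-29614272, 308 kb from the start, had the highest fold enrichment of the stretch, 3.87 (3.38 to 4.41), with 224 reads (196 to 255) over a background of 56.0 and a −log10 q of 55.5. The next peaks formed a pair with summits 0.404 kb apart. Its upstream member, chr2:29580135-29580943, was 809 bp wide and had a fold enrichment of 3.73 (3.24 to 4.27), 207 reads (180 to 237) over 53.7 and a −log10 q of 48.4. Its downstream member, chr2:29579868-29580050, was 183 bp wide and had a fold enrichment of 2.15 (1.78 to 2.58), 115 reads (94.9 to 138) over 51.8 and a −log10 q of 8.86. It was the weakest of the 6 on each of these measures except the background.

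The last peak of the stretch, chr2:29528914-29529236, lay 392 kb from the start, with a fold enrichment of 3.03 (2.59 to 3.52), 170 reads (145 to 198) over 54.3 and a −log10 q of 29.0. The interval of the 2.15-fold peak lay just below those of the other 5, the lowest of which began at 2.59. The other 5 lay between 3.03 and 3.87, and in that order each lay inside the interval of the one before it. The widths of 4 of the 6 peaks were at least 450 bp, against 31 of the 106 other peaks of background above 10 (29.2%) and 5.92% of all peaks.

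**Figure D1:**
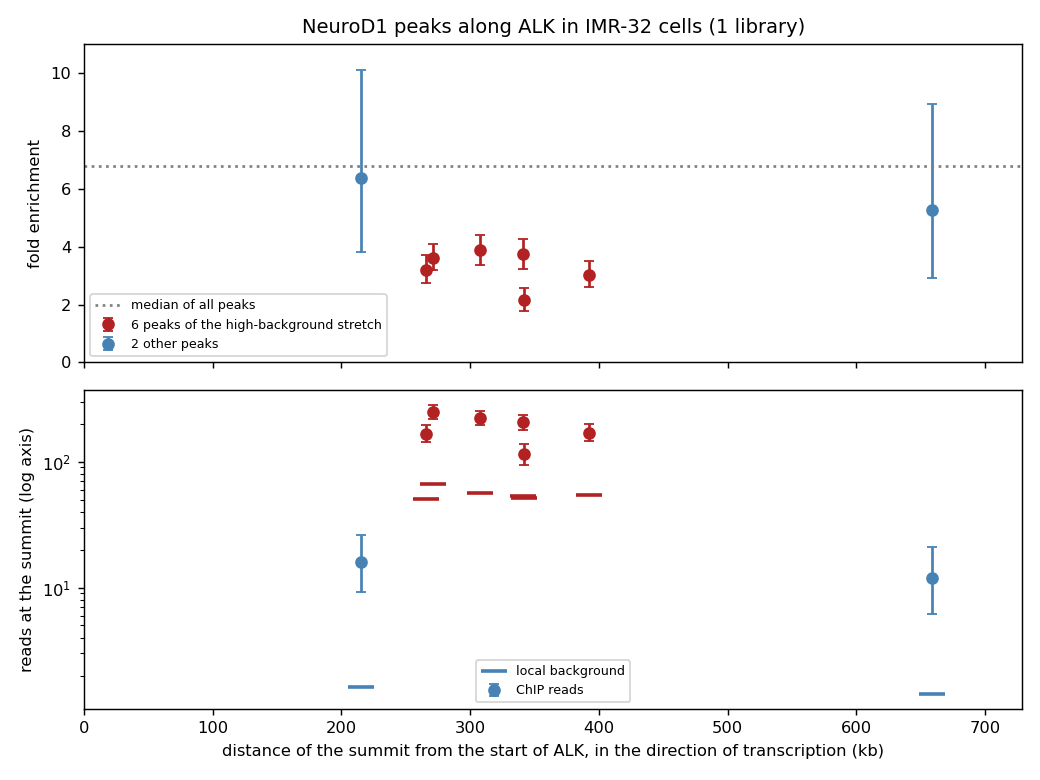
NeuroD1 peaks along ALK. The x axis gives the distance of each summit from the main start of ALK in kb, the upper y axis the fold enrichment and the lower y axis, on a log scale, the ChIP reads (circles) and the local background (short lines) at the summit. Bars are exact Poisson intervals at 95%, red marks the 6 peaks of the high-background stretch and blue the other 2, and the dotted line is the median of all peaks. The red peaks have 115 to 250 reads over a background of 50.5 to 67.0, and the blue peaks 12 and 16 reads over 1.42 and 1.62.

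The order of the ALK peaks depended on the measure. By −log10 q, the peaks of the stretch ranked between 75 and 2578 of 6183, while by fold enrichment they ranked between 6018 and 6144. The 2 peaks outside ranked 3600 and 5551 by −log10 q. All 6 fold enrichments of the stretch were below 4.34, the lowest fold enrichment of any peak at the genome-wide background of 1.04. By the formula of fold enrichment, 3.87-fold at that background corresponds to 7.01 reads and 2.15-fold to 3.45 reads. No called summit in the list had fewer than 8. This is a conversion of the values only, and why the peaks of the stretch were called was not tested. The median ALK peak of the stretch had 188.5 reads, against 17 over all peaks.

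In all, 112 peaks of the list had a background above 10, from 33.4 upwards, and no other peak was above 7.0. The 6 ALK peaks had a median background of 54.0 and a median fold enrichment of 3.41, from 2.15 to 3.87. The other 106 had a median background of 48.8, from 33.4 to 98.0, and a median fold enrichment of 2.43, from 1.58 to 6.73. The 24 of these within 500 kb of MYCN had a median background of 45.9 and a median fold enrichment of 2.54. The ALK values lay inside the range of the other peaks of high background on both measures, and these ranges are wide. The median −log10 q was 39.7 for the 6 ALK peaks, from 8.86 to 57.2. For the other 106 it was 14.6, from 1.38 to 120. Copy number was not measured here, and its part in the background was not tested.

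**Figure D2:**
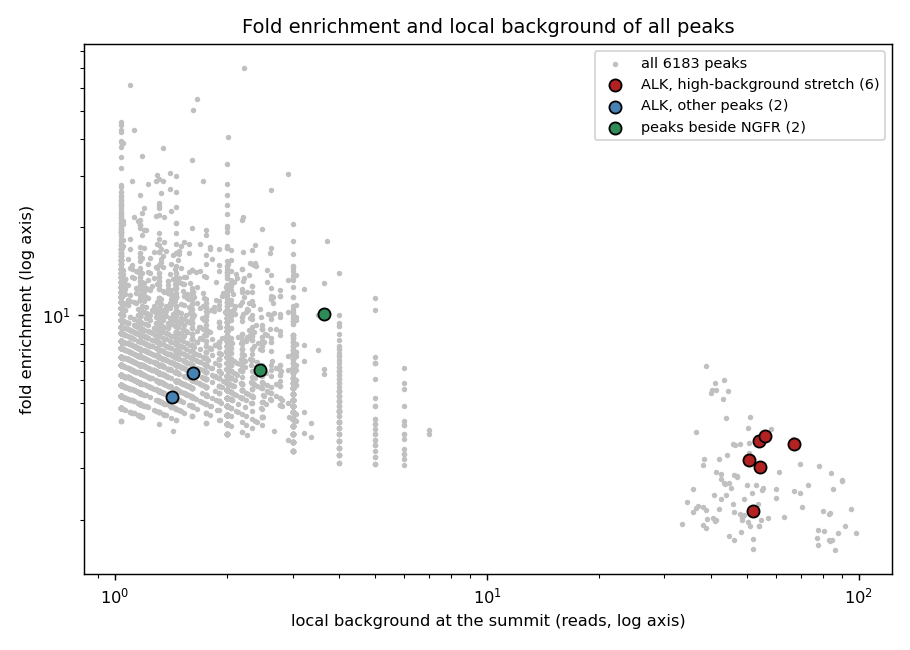
Fold enrichment and local background of all peaks. Each grey point is 1 of the 6183 peaks, with the local background at the summit in reads on the x axis and the fold enrichment on the y axis, both on log scales. The 6 ALK peaks of the stretch (red) lie with the 106 other peaks of background above 10, and the other ALK peaks (blue) and the peaks beside NGFR (green) lie at a background of 1.42 to 3.65.

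NGFR lies on chromosome 17 from 49495293 to 49515008, on the forward strand, and is 19.7 kb long. No peak overlapped the gene. Both peaks lay beyond its 3′ end, inside the long noncoding RNA gene NGFR-AS1, which overlaps NGFR. The first, chr17:49515332-49515635, lay 324 bp from the end of NGFR. It was enriched 10.1-fold (7.49 to 13.4) at −log10 q = 29.6, from 47 reads (34.5 to 62.5) against a local level of 3.65, and took rank 918 for fold enrichment and rank 308 for −log10 q. This was the highest fold enrichment of the 10 peaks, and its interval lay above those of all 6 peaks of the ALK stretch. The local level of 3.65 was above the 95th percentile over all peaks, 3.0, where the median was 1.31.

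The second NGFR peak, chr17:49519879-49520127, lay 4.87 kb from the end of the gene. It was enriched 6.53-fold (4.20 to 9.74) at −log10 q = 9.45, from 22 reads (13.8 to 33.3) against a local level of 2.45, and ranked 3565 by fold enrichment. Its interval overlapped that of the first NGFR peak. The summits of the NGFR peaks were 4.53 kb apart and lay 20.2 kb and 24.7 kb from the start of NGFR. The nearest gene was NGFR-AS1 for both peaks among all RefSeq genes, and NGFR among protein-coding genes. The peaks cannot be assigned to either gene from their position.

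The other 7 genes had no peak by the rule. ERBB3 on chromosome 12 (23.4 kb long), which binds neuregulins and has little kinase activity of its own, was the nearest to having one. Its nearest peak lay 38.2 kb away at chr12:56041632-56041882, just outside the ribosomal protein gene RPS26, with a fold enrichment of 8.28 and 21 reads. With the peak at 4.87 kb from NGFR, this gives the distances just inside and just outside the limit of 20 kb. NTRK3 on chromosome 15, a gene of 397 kb, had its nearest peak at 179 kb (7.19-fold, 21 reads), for which MRPL46 was the closest gene. The nearest peak to KIT on chromosome 4, a gene of 82.8 kb, was at 189 kb (5.56-fold, 16 reads), and the pseudogene RPL38P3 was closest to it.

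LTK, the smallest of the 9 genes at 10.2 kb, is also on chromosome 15 and had its nearest peak at 220 kb, in OIP5-AS1 (6.27-fold, 12 reads). For RET on chromosome 10, which is 53.3 kb long, it was at 279 kb in HNRNPF (5.31-fold, 10 reads). On the other side of RET the nearest peak was 6270 kb away, and how much of that distance can hold mapped reads was not examined. NTRK2 on chromosome 9, 359 kb long, had its nearest peak at 351 kb (9.16-fold, 18 reads), closest to LOC107987089. ERBB4 on chromosome 2, the longest of the 9 genes at 1160 kb, had none closer than 745 kb, where a peak lay in SPAG16-DT (7.71-fold, 15 reads). Within 500 kb there were 0 peaks for ERBB4, 1 for RET, 2 each for NTRK2 and KIT, 3 for NTRK3, 5 for LTK and 17 for ERBB3. The span searched grows with the length of the gene, and the number over all protein-coding genes at 500 kb was not counted. The counts are therefore a description only. At the genome-wide background the called summits began at 8 reads, so a site with fewer reads would not be in the list, and binding at these genes below that level was not detectable at this depth.

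A peak within 20 kb was present for 2 of the 9 receptor genes (22.2%, with a 95% exact Clopper-Pearson interval from 2.81% to 60.0%). Among all protein-coding genes the share was 29.8%. Since long genes have more room for a peak, the share was also read by length. Of the 4 members of at least 300 kb (ALK, NTRK2, NTRK3 and ERBB4), 1 had a peak, against 45.9% of the 771 protein-coding genes of that length. Of the 5 members under 100 kb, 1 had a peak, against 28.2% of the protein-coding genes of that length. Over all 9 genes with their flanks, which cover 3.20 Mb, there were 0.313 peaks per 100 kb, against 0.417 per 100 kb summed over all protein-coding genes. Without the 6 peaks of the ALK stretch, the members had 0.125 peaks per 100 kb. The value of all genes counts a peak once for each gene it is near. It also keeps all peaks of high background, so the densities are not directly comparable. The interval for the 9 genes is wide and includes 29.8%, so their share of 22.2% cannot be placed above or below that of all genes.

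The other receptor tyrosine kinases were examined as a list of 58 genes, of which 8 are members. A peak within 20 kb was present for 13 of the 58 (22.4%, exact Clopper-Pearson interval 12.5% to 35.3%), a share whose interval includes the 29.8% of all protein-coding genes. Among the 50 that are not members, 12 had a peak. The highest were in the insulin receptor family, to which ALK and LTK are related by kinase sequence. INSR on chromosome 19 had 4 peaks. The strongest of them, chr19:7294165-7294579, overlapped the promoter window shown above. It was enriched 25.5-fold at −log10 q = 60.3 with 52 reads (38.8 to 68.2), and took rank 42 of all peaks. A second INSR peak inside the gene was 18.3-fold. IGF1R, the receptor of insulin-like growth factor, had a 15.8-fold peak over its start with 35 reads (24.4 to 48.7) and a 10.3-fold peak inside the gene. PTK7, a receptor with an inactive kinase domain, had a 12.6-fold peak.

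PDGFRA, a receptor of platelet-derived growth factor that neighbours KIT on chromosome 4 and belongs to the same receptor class, had a 9.81-fold peak 79 bp before the gene with 29 reads (19.4 to 41.6), while KIT had none. EGFR and ERBB2, the relatives of ERBB3 and ERBB4, had no peak. By fold enrichment, the 6.37-fold peak outside the stretch was the highest ALK peak, and ALK ranked 11 of 13 in this list of genes. This place depended on the measure. The highest −log10 q of an ALK peak was 57.2, in the stretch, against 60.3 for INSR and 32.3 for IGF1R. The list was not ranked by −log10 q.

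**Figure D3:**
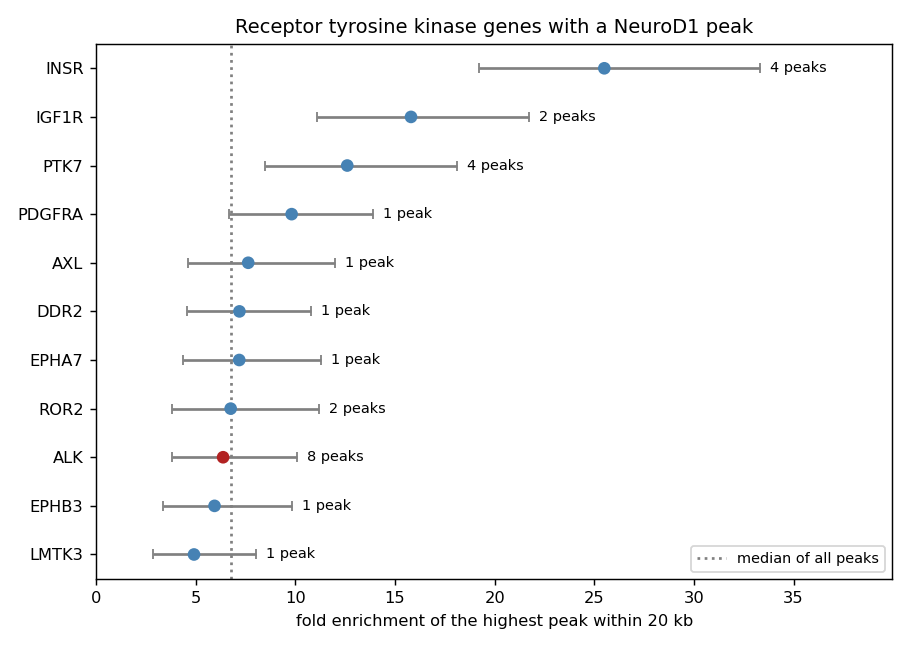
Receptor tyrosine kinase genes with a NeuroD1 peak, of which 11 of 13 are drawn. The x axis gives the fold enrichment of the highest peak within 20 kb of each gene, bars are exact Poisson intervals at 95% with the background held fixed, the number of peaks is written beside each bar, ALK is in red and the dotted line is the median of all peaks. INSR (25.5), IGF1R (15.8) and PTK7 (12.6) lie highest, and ALK has the most peaks (8) of the 11 genes drawn, with a highest fold enrichment of 6.37.

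Ligands, coreceptors and signalling partners of the 9 receptors were examined as a second list of 56 genes. A peak was present for 18 of them (32.1%, exact Clopper-Pearson interval 20.3% to 46.0%), close to the 29.8% of all protein-coding genes. By role, 7 of 21 ligand genes, 2 of 5 coreceptor genes and 9 of 30 genes of adaptors, phosphatases and feedback regulators had a peak. Of the neurotrophins, BDNF, the ligand of TrkB, had a peak of 5.79-fold inside the gene (11 reads, 5.49 to 19.7), and NTF3 and NTF4 had none. ALKAL1 and ALKAL2, the ligands of ALK and LTK, had no peak.

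Among the ligands of RET, PSPN had a 6.79-fold peak 2.43 kb away and NRTN a 5.40-fold peak 2.50 kb away, whereas GDNF and ARTN had none. Of the coreceptors that present these ligands to RET, GFRA2 had a peak of 6.88-fold and GFRA1, GFRA3 and GFRA4 had none. KITLG, which encodes stem cell factor, had a peak of 4.50-fold at one end of the gene with 9 reads (4.12 to 17.1), near the lowest number of reads in the list. Of the neuregulins, NRG3 had peaks of 7.23-fold and 7.71-fold and NRG2 one of 5.31-fold, and NRG1 and NRG4 had none.

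In this second list, SOS1, which activates RAS, had the highest peak at 11.9-fold with 28 reads (18.6 to 40.5), followed by GRB2, the adaptor that binds SOS proteins, at 8.55-fold and SORT1, a coreceptor of NGFR for proneurotrophins, at 8.23-fold. NRG3, IRS1 and IRS2 followed, each at 7.71-fold with 15 reads. The median of the highest peaks of the 18 genes, 6.50-fold, was close to the 6.79-fold of all peaks.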

How the data were processed

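Peaks of 1 NeuroD1 ChIPseq library of IMR-32 cells were used. The submitters' processing notes name BWA 0.7.17, MACS2 2.2.7 and the build hg38, while the peak names carry macs3. Which control was used, and at which q peaks were kept, is not given in the sources used here. The authors deposited for each peak a fold enrichment (ratio of ChIP pileup to local background), the −log10 p-value and −log10 q-value at the summit, a score that is 10 times the −log10 q as a whole number, and the fold enrichment divided by the width.

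The weight of 1 ChIP read, 0.980, was the value for which the Poisson formula of MACS gave back the deposited −log10 p within 0.02. It solved 6183 of 6183 peaks, and the fold enrichment then gave the background. On 1000 peaks simulated by the same formula and solved with their known weight, the solver returned 100% of the reads. This checks the arithmetic of the solver only. The list held 6183 peaks on 23 chromosomes, with 8 or more reads at each summit. The total reads are unknown.

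Genes and promoter windows were taken from RefSeq of GRCh38.p14 on the 23 chromosomes with peaks (59098 genes, 19974 protein-coding), the same build as the peaks, and all 114 list entries matched. E-boxes at summits were not run, since no genome sequence was used. Named genes were all 9 members, the genes nearest to their peaks, the closest relatives and ligands, and the genes with the 5 highest peaks of each list. The gene nearest to the closest peak was also named for members without a peak, and MYCN as a reference. A few genes under this rule are not reported here, but stay in the counts. The members and lists were chosen with earlier results of these data known. The alternatives were other distances, stricter peak lists, summits in place of intervals, protein-coding genes alone, a read weight of 1 and rank by −log10 q. Scripts ran in Python 3.11.15 with scipy 1.17.1 for the intervals, pandas 2.3.3 and numpy 2.4.6, and figures were drawn with matplotlib 3.10.9.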

Additional observations from a re-analysis of the deposited data

How the results depend on the processing

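The 10 peaks of the members became 8 within the gene bodies and 12 within 50 kb, and 4 at 5-fold enrichment or more, or without the ALK stretch, since all 6 peaks of the stretch are below that limit. Leaving out the stretch was chosen after seeing the data. The 2 genes with a peak became 1 within gene bodies alone, where NGFR has none, against 16.1% of all protein-coding genes, and were ALK and NGFR under the other limits run, with ERBB3 added at 50 kb (3 genes, against 40% of all protein-coding genes). The median fold enrichment of the 10 peaks rose from 3.8 to 6.45 without the stretch. By −log10 q the strongest ALK peak ranked 75 in place of 3689, as another peak, and the strongest NGFR peak 308 in place of 918. The 13 receptor tyrosine kinase genes became 9 within gene bodies, 12 with a −log10 q of at least 5 and 12 at 5-fold enrichment or more, where the shares of all protein-coding genes were 16.1%, 24.5% and 27.6%. Of the 56 ligand, coreceptor and adaptor genes, the 18 with a peak became 11 within gene bodies and also 11 where −log10 q reached 5. At 5-fold enrichment or more they became 16. The shares of all protein-coding genes under these limits were the same 16.1%, 24.5% and 27.6%. The median background of the stretch was 53.5 with a read weight of 1. The E-box share at summits was not run. No paired analysis was possible because the groups hold 1 library each. The low reads at most summits limit the order of the peaks, and no result has a replicate check.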

Other observations

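The share of promoter windows with an E-box was set beside the same share in windows without a peak, with no test of the difference. CANNTG was present in 57.6% of the 2404 windows with a summit (95% exact Clopper-Pearson interval 55.6% to 59.6%) and in 69.8% of the 32040 windows without a peak (69.2% to 70.3%). For CAGATG or CATCTG the shares were 9.03% (7.91% to 10.2%) and 15.2% (14.8% to 15.6%), and for CAGCTG 19.1% (17.5% to 20.7%) and 17.9% (17.5% to 18.3%). The mean G and C content was 67.5% in the windows with a summit and 56.6% in those without a peak, and its part in these shares was not tested. Genes can have several windows that overlap, so the intervals are too narrow. The windows are fixed at gene starts and not centred on summits. The shares therefore do not describe the bases under the peaks, and peaks away from gene starts are not covered. The main ALK window, with 4 E-boxes and no peak, had a G and C content of 71.0%, and the IGF1R window, with a 15.8-fold peak over it and 0 E-boxes, had 79.7%. The IGF1R window was singled out after its values were seen.

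The other protein-coding genes with at least 8 peaks by the same rule as ALK included NBAS with 28, RBFOX3 with 11, MEIS1 with 10, and GLIS1, MSI2, UBTF and ZMIZ1 with 8 each. UBTF is 16.3 kb long, whereas ALK is 729 kb long. The counts of these genes hold peaks of any background and were not split by background as those of ALK were. They are therefore not a measure of binding. These genes were named after their values were seen.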
